A study of Triticum aestivum with 6 samples.

Results

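SPL (squamosa promoter-binding-like) genes encode transcription factors found only in plants. Many of their transcripts are cleaved through the microRNA miR156, whose level falls as a plant ages, and in rice and wheat some SPL proteins restrain the outgrowth of tillers and act together with the strigolactone pathway, the hormone pathway that holds axillary buds back. Common wheat is hexaploid, so that most genes exist as homoeologs, that is, as similar copies on the A, B and D subgenomes. The 8 SPL genes described here, of 70043 genes listed in the count table, belong to 3 homoeologous groups. Group 7 holds TraesCS7A02G246500, TraesCS7B02G144900 and TraesCS7D02G245200. Group 5 holds TraesCS5A02G265900, TraesCS5B02G265600 and TraesCS5D02G273900. Group 2 holds TraesCS2A02G232400 and TraesCS2B02G250900, and a 2D copy was not analysed here. The copies are called by their chromosome below (the 7A copy and so on).

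These genes were chosen by a readout of the same libraries. The 7A, 7B, 7D, 5A and 2B copies were selected on their increased expression in the mutant, since the study names them among its differentially expressed SPL homologs, and the 5B, 5D and 2A copies were added as homoeologs that it does not name. For the 5 named copies the mutant and Fielder values are therefore a description without a test, and for the 3 others an adjusted p over all tested genes is given where the counts allowed a fit. Levels of homoeologs within a library were not used directly in the choice. A copy with few counts is less readily called, however, so that level can enter the choice indirectly, as for the 2A copy. The grouping into homoeologs was taken as given with the list, and which SPL gene of other species each group corresponds to is not stated here.

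RNA came from axillary buds, which sit at the leaf bases and can grow out as tillers, of the wheat cultivar Fielder and of tatfl1-5, a Fielder mutant with null alleles of the TERMINAL FLOWER 1 homolog TaTFL1-5 in all subgenomes (aabbdd). The mutant alleles were made with CRISPR/Cas9, and the triple mutant is a single transgene-free line. Each genotype had 3 replicate libraries, and their labels name neither separate plants nor pools. The age of the seedlings is given as 10 days in one place of the study and as 3 weeks in another. Library totals lay between 13320461 and 17174131 counts, and 1 count corresponded to 0.0583 to 0.0726 CPM, that is, counts relative to the library size after edgeR's TMM scaling. Of the edited genes, TaTFL1-5A was counted 9, 14 and 21 times in Fielder against 1, 7 and 5 times in tatfl1-5, and TaTFL1-5B 46, 44 and 31 against 20, 19 and 23 times. Their log2 fold changes were -1.71 (SE 0.83; edgeR, adjusted p = 0.147) and -1.0 (SE 0.47; edgeR, adjusted p = 0.131), so that neither was called lower, and TaTFL1-5D was not analysed here. Values of a genotype are listed throughout in the order of replicates 1, 2 and 3. The files pair no identifier with a gene name, so that markers of bud tissue could not be checked.

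Group 7 showed the highest mutant-to-Fielder ratio among the groups with all 3 homoeologs at hand. Its summed expression was 1.31, 1.35 and 4.37 CPM in Fielder and 9.64, 6.97 and 12.9 CPM in the mutant, so that the genotypes did not overlap. The means were 2.34 ± 1.76 and 9.84 ± 2.98 CPM (SD, n = 3 each), a ratio of 4.2, which was 7.41 without Fielder replicate 3. Fielder replicate 3 lay well above the other Fielder libraries. A summed level does not depend on how the counting split reads between the copies in the sum. Any reads left out because they match several copies would be missing from it.

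Of the 3 copies, the 7D copy had the largest difference. Fielder gave 4, 1 and 9 counts, whereas tatfl1-5 gave 47, 41 and 63. Every mutant library was far above every Fielder library. Mean expression was 0.293 ± 0.230 CPM in Fielder and 3.22 ± 0.813 CPM in tatfl1-5 (SD, n = 3 each). The log2 fold change of 3.40 (SE 0.65) lay between 2.93 and 4.15 when each library was left out in turn, with the highest value without Fielder replicate 3.

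The 7B copy was also low in Fielder, with 6, 2 and 14 counts against 29, 29 and 37 in tatfl1-5. The genotypes did not overlap here either. Its means were 0.460 ± 0.344 and 2.03 ± 0.360 CPM (SD, n = 3 each), and its log2 fold change was 2.10 (SE 0.68). It was 2.83 without Fielder replicate 3 and 1.66 without Fielder replicate 2.

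The 7A copy was the most abundant of the group per gene length. Its counts were 8, 18 and 52 for Fielder against 82, 38 and 96 for tatfl1-5, so that Fielder replicate 3 lay above mutant replicate 2 and the genotypes overlapped. The means of 1.59 ± 1.28 and 4.59 ± 1.97 CPM (SD, n = 3 each) gave a log2 fold change of 1.51 (SE 0.53). Without Fielder replicate 3 this value was 2.37, and without Fielder replicate 1 it was 1.12.

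**Figure D1:**
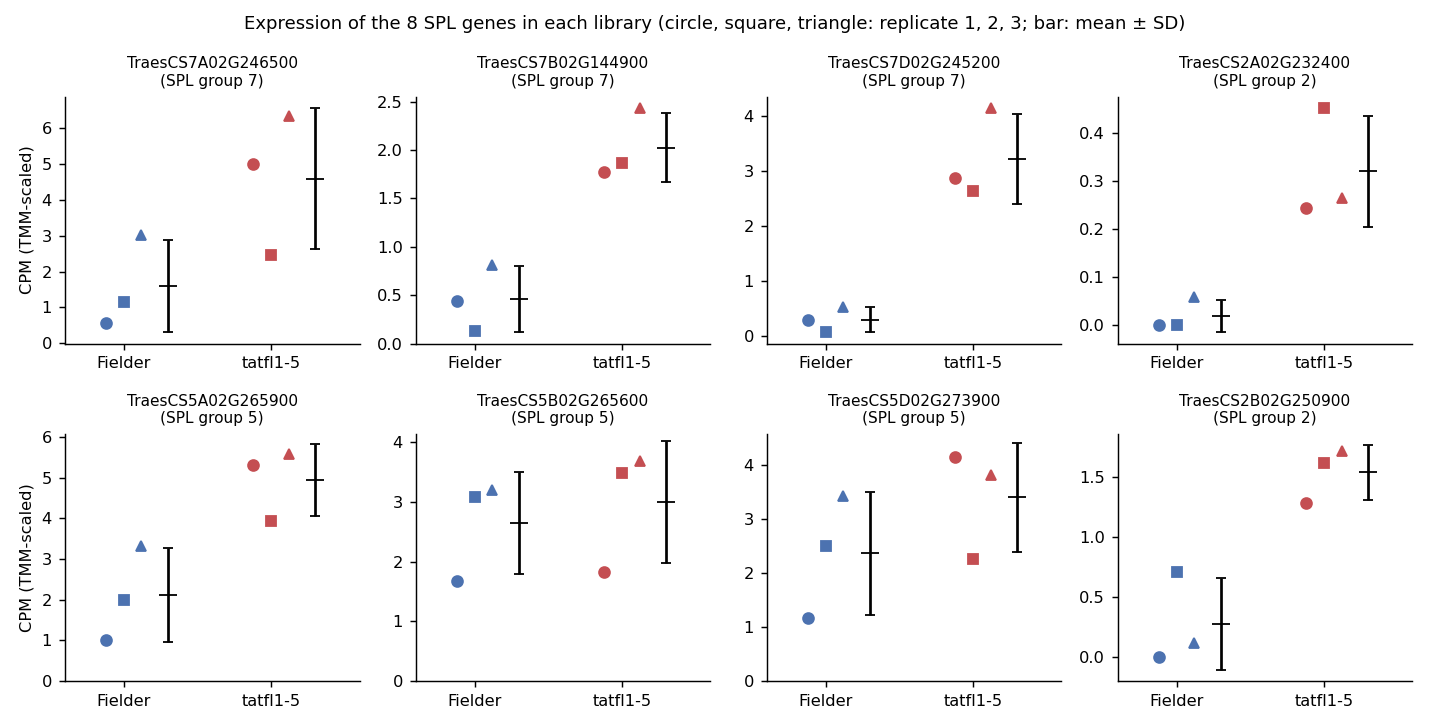
Expression of each SPL gene in CPM (y axis, a separate scale in each panel) in the 3 Fielder and 3 tatfl1-5 libraries (x axis), with replicates 1, 2 and 3 as circles, squares and triangles and the mean ± SD as a bar. The 7B, 7D, 5A, 2A and 2B copies do not overlap between the genotypes, and the 7A, 5B and 5D copies do.

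Group 5 was the most abundant in both genotypes, with summed means of 4.65 FPKM in Fielder and 7.07 FPKM in the mutant (FPKM divides by gene length) against 1.51 and 5.91 FPKM for group 7, and it differed the least. Its summed expression was 3.85, 7.58 and 9.96 CPM in Fielder and 11.3, 9.68 and 13.1 CPM in the mutant. Fielder replicate 3 reached the range of the mutant libraries. The means were 7.13 ± 3.08 and 11.4 ± 1.72 CPM (SD, n = 3 each), a ratio of 1.59.

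Within this group the 5A copy alone had libraries that did not overlap. Fielder gave 14, 31 and 57 counts and tatfl1-5 gave 87, 61 and 85, which corresponds to 2.11 ± 1.16 and 4.95 ± 0.889 CPM (SD, n = 3 each). The log2 fold change was 1.21 (SE 0.41), and it was 0.89 without Fielder replicate 1. This was the smallest difference among the 5 copies chosen as differentially expressed.

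For the 5B copy no difference between the genotypes was detected. Its counts were 23, 48 and 55 for Fielder against 30, 54 and 56 for tatfl1-5, nearly the same range. Expression was 2.65 ± 0.854 and 3.0 ± 1.02 CPM (SD, n = 3 each), and the log2 fold change was 0.17 (SE 0.42) with a 95% interval of -0.73 to 1.07 (edgeR, adjusted p = 0.802). Its sign turned to -0.07 without Fielder replicate 1 and to about 0 (-0.0015) without mutant replicate 3.

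For the 5D copy Fielder gave 16, 39 and 59 counts and tatfl1-5 gave 68, 35 and 58, with overlapping genotypes. Its 2.37 ± 1.15 and 3.41 ± 1.01 CPM (SD, n = 3 each) corresponded to a log2 fold change of 0.51 (SE 0.44) with a 95% interval of -0.44 to 1.46, which did not pass the test (edgeR, adjusted p = 0.424). Neither interval reaches the 7D value, whereas both include a 2-fold difference. Among the fitted copies, the 5A copy was thus the nearest inside the choice of the study and the 5D copy the nearest outside it.

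Group 2 was close to the limit of detection in Fielder. Summed over both copies its counts were 0, 11 and 3 for Fielder against 25, 32 and 30 for tatfl1-5, without overlap. These correspond to 0.294 ± 0.368 and 1.86 ± 0.289 CPM (SD, n = 3 each), a ratio of 6.31. Of the 14 Fielder counts, 11 came from replicate 2, and without that library the ratio was 21.2.

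The 2B copy carried most of these counts, with 0, 11 and 2 for Fielder against 21, 25 and 26 for tatfl1-5. The mutant libraries lay close together and all above Fielder. The means were 0.275 ± 0.379 and 1.54 ± 0.226 CPM (SD, n = 3 each). The log2 fold change of 2.43 (SE 0.90) was 4.43 without Fielder replicate 2 and 1.90 without Fielder replicate 1.

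The 2A copy was counted 0, 0 and 1 times in Fielder against 4, 7 and 4 times in tatfl1-5, too few to pass the filter on low counts. Scaled to the library sizes, its 15 mutant counts against 1 Fielder count were a ratio of 14.8, with an exact 95% interval of 2.28 to 624 that covers counting error only. In a fit without the filter its log2 fold change of 3.51 (SE 2.03) did not pass the test (edgeR, adjusted p = 0.235).

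Of the 8 genes, 7 were fitted and 3 of these, the 7B, 7D and 5A copies, were called higher in the mutant, where a call needs an adjusted p under 0.05 and a log2 fold change above 1. Over all 52228 tested genes 7.98% were called higher by the same rule. DESeq2 called 5 of the 8, the copies named by the study, against 7.27% of its tested genes. Of the 7 fitted genes 4 had every mutant library above every Fielder library, against 22.2% of all tested genes. As 5 of the 8 were chosen on this contrast, these counts describe the choice. The median log2 fold change of the 7 was 1.51, beside 0.0046 over all tested genes.

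**Figure D2:**
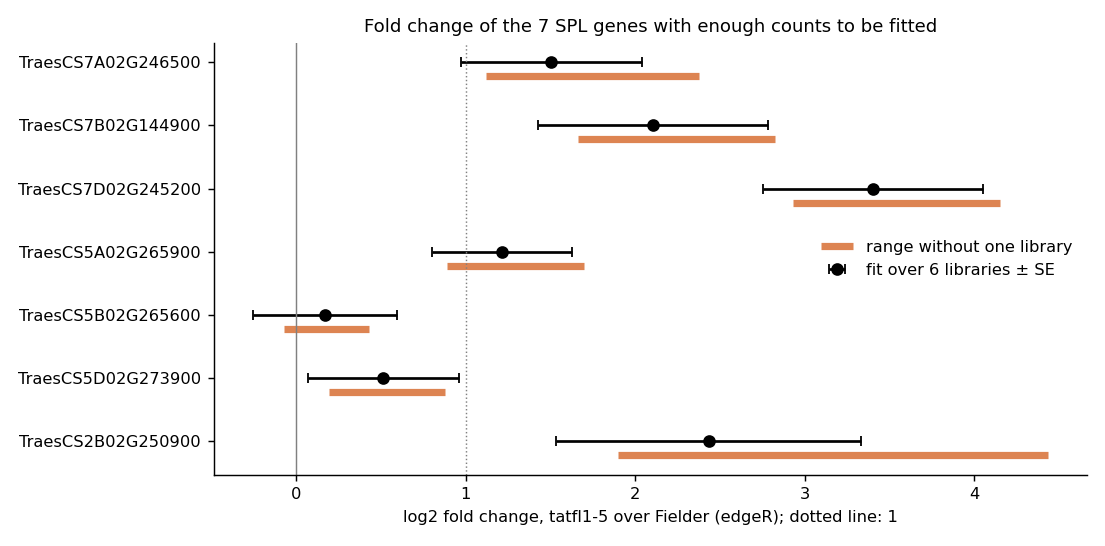
Log2 fold change of tatfl1-5 over Fielder (x axis) for the 7 fitted SPL genes (y axis), as points ± SE from edgeR, with orange bars for the range when each library in turn was left out. The 7D copy has the highest value (3.40), and the orange bar of the 5B copy alone crosses 0.

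Depth and counting error set part of this precision. In Fielder, the coefficient of variation over the replicates was 80.6% for the 7A copy, whereas counting alone would give 19.6%. It was 78.5% for the 7D copy, where counting alone would give 46.3%. In the mutant, the coefficients of the 7B copy (17.8%) and of the 2B copy (14.7%) were no larger than counting alone would give (17.8% and 20.4%). Fielder replicate 3 held the highest value of that genotype for 7 of the 8 genes and Fielder replicate 1 the lowest for 5, ties left out. In the mutant, replicate 3 was the highest for 6 of the 8. The same library was thus the highest for most of the SPL genes within a genotype.

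Levels of different genes were compared as FPKM, which divides by gene length. In Fielder the order was 5B (1.78), 5D (1.54), 5A (1.33), 7A (1.09), 2B (0.252), 7B (0.247), 7D (0.170) and 2A (0.0174 FPKM). The range of each copy over the replicates overlapped with that of the next in this order. In the mutant the order was 7A (3.06), 5A (3.01), 5D (2.14), 5B (1.93), 7D (1.80), 2B (1.35), 7B (1.05) and 2A (0.278 FPKM). There only the last step, from the lowest 7B library (0.916 FPKM) to the highest 2A library (0.388 FPKM), was without overlap. Among all listed genes, the 7D copy stood at percentile 18.1 of the Fielder levels and at percentile 43.9 of the mutant levels, and the 5B copy at 43.5 and 45.2. The highest of the 8 in the mutant were the 7A copy at percentile 54.2 and the 5A copy at 53.8, and in Fielder the 5B copy was the highest.

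Homoeologs were then compared with each other inside each library, where differences in depth cancel. The ratio was taken of counts + 0.5 per gene length, and the 7 pairs were tested over the 6 libraries with an exact two-sided sign-flip permutation test, whose smallest possible p is 0.0312. The 7A copy was above the 7B copy in 6 of 6 libraries, with a mean log2 ratio of 1.75 ± 0.95 (SD). It was also above the 7D copy in 6 of 6, with 1.63 ± 1.38. In mutant replicate 2, however, 7A had 38 counts and 7D had 41, so that 7A was ahead there only per gene length. Without the length correction the exact permutation p of 7A over 7D was 0.0625. The 2A copy was not above the 2B copy in any of the 6, with -1.98 ± 1.57. As the 2A copy has few counts and was not named by the study, the choice may set part of this direction. In Fielder replicate 1 neither of these copies had a count, so that this ratio came from the added 0.5 and the lengths alone. Without that library the exact permutation p was 0.0625, the smallest that 5 libraries allow, so that it cannot show how much that library mattered. Each of these 3 pairs gave the smallest possible p (exact permutation test, p = 0.0312), which is 0.0729 after adjustment over the 7 pairs. The order within groups 7 and 2 therefore did not pass the adjusted threshold in this design. At the smallest possible p, 3 of 7 pairs cannot pass it alone, so that no conclusion about the order is drawn from this outcome. In group 5 the mean log2 ratios over both genotypes were 0.06 to 0.14, with exact permutation p of 0.469 to 0.875 before adjustment. Where a ratio has opposite signs in the genotypes, as for 7B over 7D, 5A over 5B and 5A over 5D, this mean over all libraries does not describe the order within a genotype. Libraries of a genotype share that genotype, so that they are not 6 independent draws of a wheat bud.

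The log2 ratio between the 7B and 7D copies differed in sign between the genotypes. The log2 ratio of 7B over 7D was 0.42, 0.62 and 0.50 in Fielder and -0.80, -0.61 and -0.87 in the mutant. The 7B copy was thus ahead in all 3 Fielder libraries and the 7D copy in all 3 mutant libraries. Means of 0.51 ± 0.10 and -0.76 ± 0.14 (SD, n = 3 each) gave a difference of -1.27. Its SE of 0.10 holds only the spread of these ratios and does not measure the counting error of so few reads. In Fielder the ratios rest on 6 against 4, 2 against 1 and 14 against 9 counts. The pooled Fielder counts were 22 for 7B and 14 for 7D, so that 7B held 61.1% of the pair. The exact 95% interval of 43.5 to 76.9% (counting error only) includes an equal share, so that an order in Fielder is not established. In the mutant the pooled counts were 95 and 151, or 38.6% (32.5 to 45.0%). The fold changes that enter this difference are those the genes were chosen on, and it was not tested.

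In group 5 the log2 ratios of the 5A copy to its homoeologs also differed in sign between the genotypes. The log2 ratio of 5A over 5D was -0.23, -0.37 and -0.09 in Fielder and 0.31, 0.75 and 0.50 in the mutant. The ratio of 5A over 5B was -0.78, -0.71 and -0.03 in Fielder and 1.44, 0.09 and 0.51 in the mutant. Per gene length, the 5A copy was below both of its homoeologs in every Fielder library and above both in every mutant library. In Fielder replicate 3 it had 57 counts against 55 for 5B, so that it was below 5B there only through the lengths. The differences between the genotypes were 0.75 (SE 0.15) over 5D and 1.19 (SE 0.46) over 5B. The 5A copy was chosen for its higher level in the mutant and the other copies were not, so that the choice largely sets this direction, and it was not tested. In pooled counts, 5A held 47.2% of its counts with 5D in Fielder (102 and 114 counts, exact 95% interval 40.4 to 54.1%, which includes an equal share) and 59.1% in the mutant (233 and 161 counts, 54.1 to 64%). Of its counts with 5B, 5A held 44.7% in Fielder (102 and 126 counts, 38.2 to 51.4%, which also includes an equal share). In the mutant it held 62.5% of them (233 and 140 counts, 57.3 to 67.4%). The 5B and 5D copies kept no order in either genotype, with ratios of 0.55, 0.34 and -0.06 in Fielder and -1.13, 0.66 and -0.01 in the mutant.

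**Figure D3:**
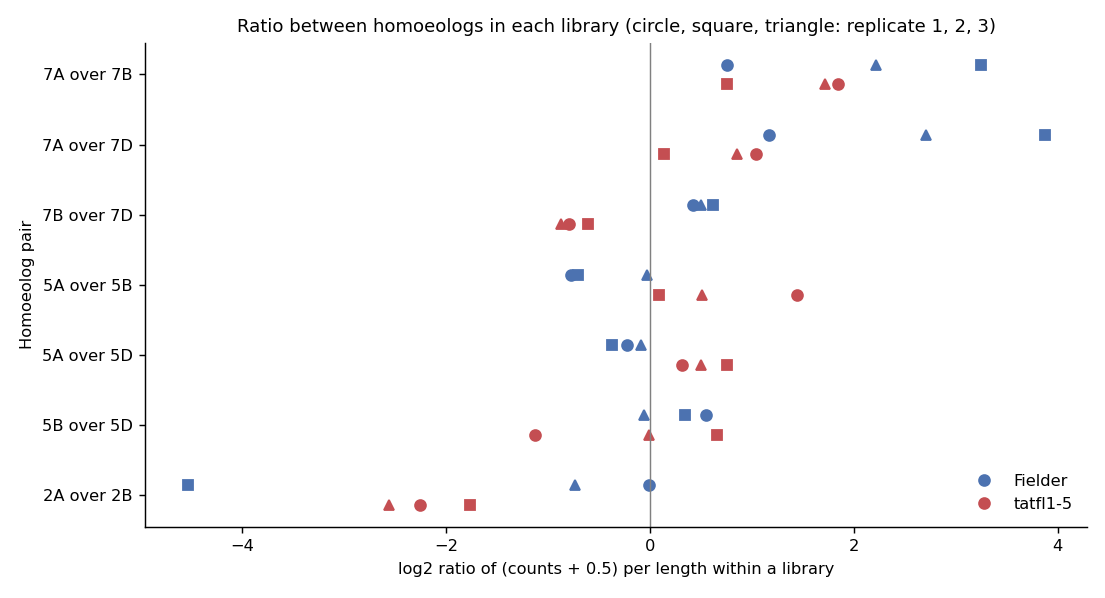
Log2 ratio of counts + 0.5 per gene length between 2 homoeologs of the same library (x axis) for the 7 pairs (y axis), Fielder in blue and tatfl1-5 in red, with replicates 1, 2 and 3 as circles, squares and triangles. For 7B over 7D, 5A over 5B and 5A over 5D the genotypes lie on opposite sides of 0. Per gene length, 7A is above 7B and 7D in each of the 6 libraries.

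Expressed as shares of the group's counts per kilobase, the 7A copy held 49.9, 88.2 and 73.8% of group 7 in Fielder and 56.9, 40.0 and 54.0% in the mutant. These overlapped. The 7D copy held 21.0, 4.13 and 10.8% in Fielder and 27.5, 36.3 and 29.8% in tatfl1-5. The genotypes did not overlap, and its mean share went from 12 ± 8.5% to 31.2 ± 4.58% (SD, n = 3 each). The share of the 7B copy hardly differed, with means of 17.4 ± 10.9% and 18.5 ± 4.52%. The D copy, with the lowest mean share of the group in Fielder, thus had the larger share in the mutant without overlap, and this was not tested.

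In group 5 the share of the 5A copy went from 27.7 ± 3.99% to 42.4 ± 3.33% (SD, n = 3 each) without overlap. The 5B copy had 39.7 ± 5.91% and 27.7 ± 10.2%, and the 5D copy 32.5 ± 2.27% and 29.9 ± 6.89%, both with overlap. In group 2 the 2B copy held 84.0, 78.2 and 86.7% in the mutant libraries. In Fielder its share was 100% of 11 counts in replicate 2 and 66.7% of 3 counts in replicate 3, and replicate 1 had no count of either copy. Counting may split reads between copies as similar as these, and how reads that match several copies were treated is not given in the sources used here. The shares depend on such a split, and the sums would also lack any reads that were left out.

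**Figure D4:**
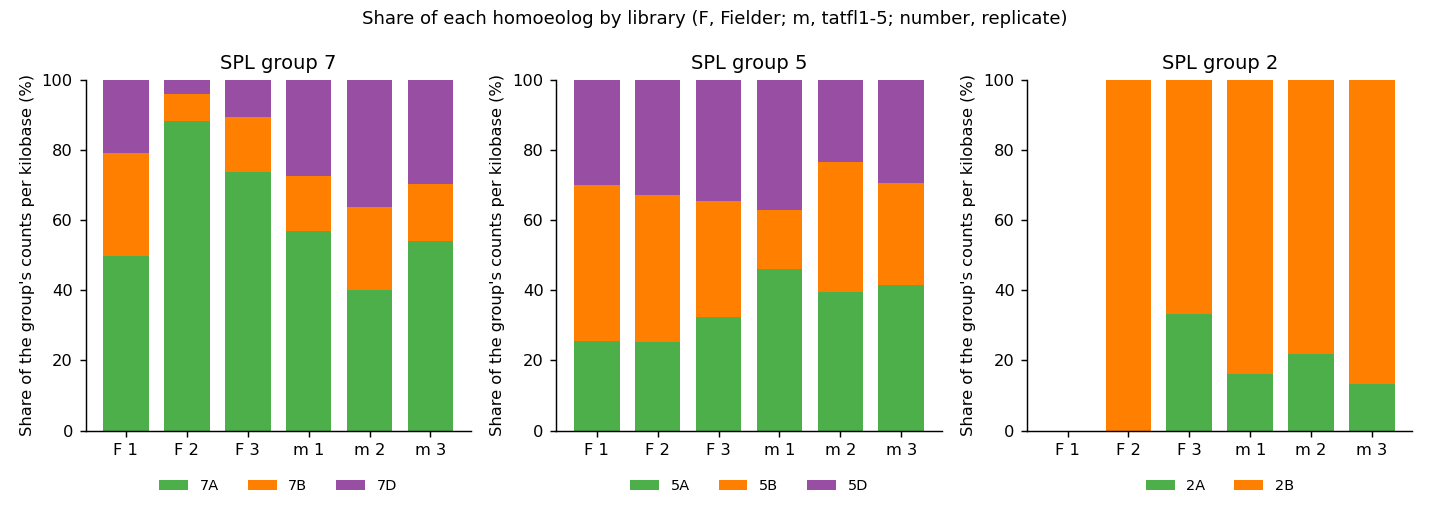
Share of each homoeolog in its group's counts per kilobase (y axis, percent) in each library (x axis; F, Fielder; m, tatfl1-5) for groups 7, 5 and 2. The 7D share is between 27.5 and 36.3% in the mutant libraries and at most 21.0% in Fielder, and Fielder replicate 1 has no bar in group 2 because both copies had 0 counts.

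The other SPL homologs that the study names were 3 genes on group 2 chromosomes, TraesCS2B02G432700, TraesCS2D02G410700 and TraesCS2D02G502900. All 3 were called higher, but they too were chosen as differentially expressed in these libraries. TraesCS2D02G502900 was counted 0, 7 and 1 times in Fielder against 23, 28 and 27 times in tatfl1-5, with a log2 fold change of 3.22 (SE 0.91). Its highest Fielder library was replicate 2, as for the 2B copy. TraesCS2B02G432700 was counted 1, 0 and 10 times in Fielder against 19, 22 and 34 times in tatfl1-5, and its log2 fold change was 2.77 (SE 0.93). TraesCS2D02G410700 had 4, 0 and 9 against 49, 14 and 32, with 2.83 (SE 0.86). In both of these Fielder replicate 3 was the highest Fielder library. Whether TraesCS2D02G410700 or TraesCS2D02G502900 is a homoeolog of any of the 8 genes was not established.

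TaPIL1 encodes a bHLH transcription factor of the phytochrome-interacting factor-like family, which restrains tillering in wheat and binds wheat SPL proteins. Both of its genes named by the study, TraesCS5A02G376500 and TraesCS5D02G386500, were called higher, again as genes chosen on this contrast. TraesCS5A02G376500 was counted 19, 20 and 49 times in Fielder against 75, 64 and 68 times in tatfl1-5, a log2 fold change of 1.24 (SE 0.40). TraesCS5D02G386500 had 19, 26 and 67 against 121, 55 and 101, a log2 fold change of 1.32 (SE 0.43), with Fielder replicate 3 above mutant replicate 2. Of 6 other TFL1 homologs, 5 were tested and 0 were called in either direction, beside 13.7% of all tested genes. For TraesCS4D02G305800 and TraesCS2B02G310700 every mutant library lay above every Fielder library, as for 22.2% of all tested genes. Their log2 fold changes were 1.06 (SE 0.47; edgeR, adjusted p = 0.115) and 0.62 (SE 0.28; edgeR, adjusted p = 0.120). The other tested homologs overlapped between the genotypes.

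The position of the genes was not used in the choice. By the order of identifiers along each chromosome, the 5A, 5B and 5D copies lay at 51.7, 51.2 and 51.4% of the listed genes, the 2A and 2B copies at 36.8 and 36.1%, and the 7A, 7B and 7D copies at 39.7, 30.2 and 41.3%. Of the 80 tested genes within 5 places of a member, 4 were called higher and 9 lower, and their median log2 fold change was -0.04. As the members are homoeologs, their neighbours may be homoeologs of each other too. The 80 genes are therefore not independent, and these counts were not tested. Over all tested genes 7.98% were called higher and 5.75% lower.

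A much lower gene lay close to each copy of group 7. TraesCS7A02G246000, 4 tested genes before the 7A copy, was counted 429, 415 and 330 times in Fielder against 8, 10 and 5 times in tatfl1-5, a log2 fold change of -5.69 (SE 0.31, edgeR adjusted p = 8.0e-08). TraesCS7D02G244500, 5 tested genes before the 7D copy, had 278, 389 and 381 against 9, 7 and 4, a log2 fold change of -5.70 (SE 0.30, edgeR adjusted p = 5.12e-08). TraesCS7B02G145500, 5 tested genes after the 7B copy, had 238, 202 and 248 against 18, 4 and 13, a log2 fold change of -4.31 (SE 0.37, edgeR adjusted p = 3.86e-06). In all 3 every mutant library was far below every Fielder library, the opposite direction to the SPL copies beside them. The gene lengths implied by the files were 1524, 1549 and 1489 bases, and whether these genes are homoeologs was not established.

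Next to group 5, the gene 3 tested places before each copy was lower in the mutant. The log2 fold changes were -3.45 (SE 0.45) for TraesCS5A02G265500, -2.35 (SE 0.35) for TraesCS5B02G265200 and -2.73 (SE 0.41) for TraesCS5D02G273400. The counts of TraesCS5A02G265500, for example, were 88, 76 and 120 for Fielder against 15, 6 and 5 for tatfl1-5. Directly after the 5A copy, TraesCS5A02G266000 was counted 11, 29 and 44 times in Fielder against 65, 57 and 96 times in tatfl1-5, a log2 fold change of 1.40 (SE 0.44, edgeR adjusted p = 0.0298). Its Fielder libraries stood in the same order as those of the 5A copy, replicate 1 lowest and replicate 3 highest. Some neighbours of other copies, such as TraesCS7D02G245800, stood in this order too, and others did not. The totals of the Fielder libraries also rose in this order. TraesCS7D02G245100, directly before the 7D copy, was higher by 1.21 (SE 0.33, edgeR adjusted p = 0.0139). The remaining called neighbours were TraesCS7B02G145100 (-1.68), TraesCS5B02G265400 (-1.78), TraesCS5B02G266100 (-1.30), TraesCS5D02G273200 (1.17) and TraesCS2A02G233300 (1.86), each given as a log2 fold change. No neighbour of the 2B copy was called.

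**Figure D5:**
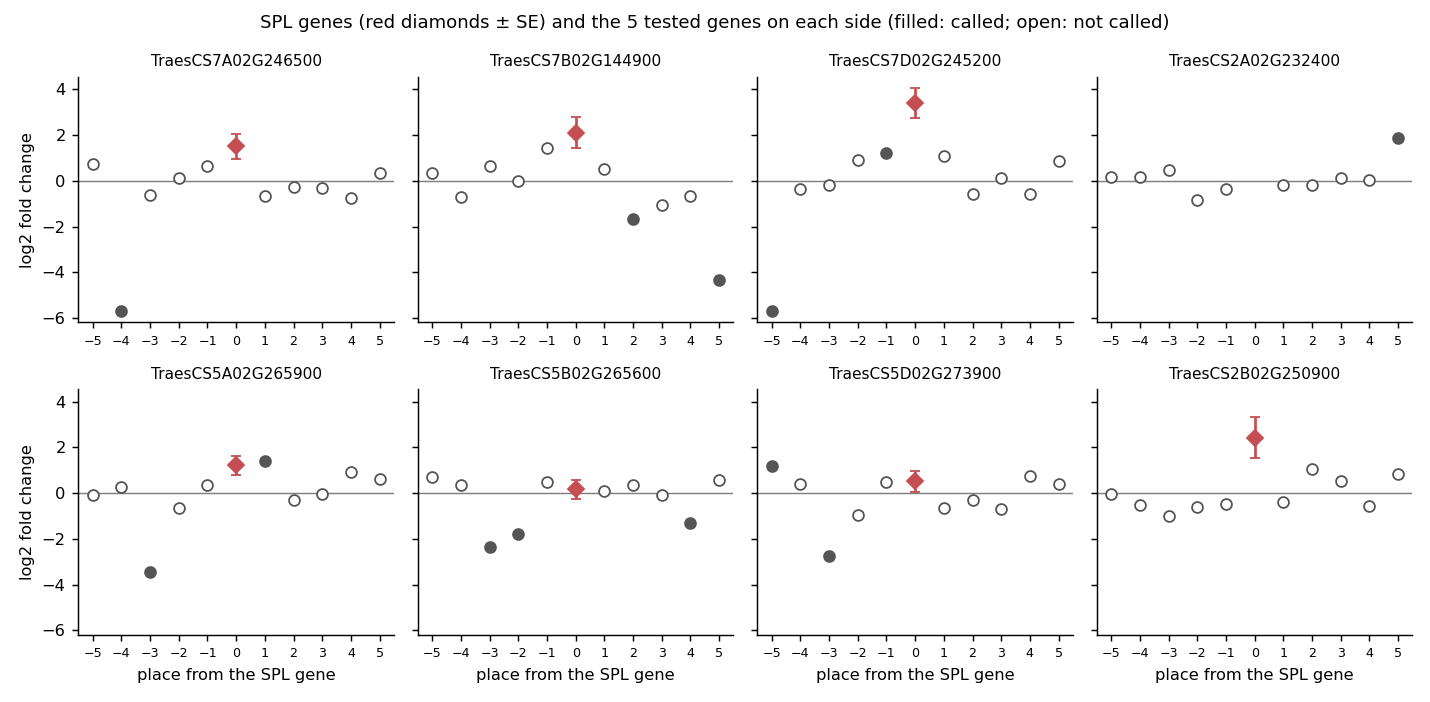
Log2 fold change of tatfl1-5 over Fielder (y axis) for each fitted SPL gene (red diamond ± SE, at 0) and for the 5 tested genes on each side of each SPL gene (x axis, place in the order of identifiers), filled where called. A called gene at -4.31 or lower stands within 5 places of each group 7 copy.

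The genes whose profile was most like each group were sought among 49012 tested genes with a mean of at least 1 CPM, by Pearson's r of log2 CPM with the summed group over the 6 libraries, as a description. For group 7 they were TraesCS3B02G217100 (r = 0.9986) and TraesCS1D02G394700 (r = 0.9978). TraesCS3B02G217100 had 0.508, 0.514 and 1.34 CPM in Fielder and 2.56, 1.81 and 3.29 CPM in the mutant. It was picked for its likeness to group 7 over these libraries, so that a matching order of libraries comes from the choice. For group 5 they were TraesCS2D02G292700 (r = 0.9971) and TraesCS4D02G335500 (r = 0.996), and for group 2 TraesCS6A02G304600 (r = 0.9976) and TraesCS1B02G098000 (r = 0.9964). TraesCS3B02G217100 and both genes for group 2 were called higher, whereas TraesCS1D02G394700 and both genes for group 5 were not called. Of the candidates, 2.31, 1.27 and 1.35% had an r above 0.95 with groups 7, 5 and 2. Between the summed groups r was 0.858 for groups 5 and 7, 0.787 for groups 2 and 5, and 0.736 for groups 2 and 7, with the genotype difference included in each.

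Other parts of the transcriptome differed alongside the SPL genes. All 15 genes of a DNA replication list, as a sign of dividing cells, were called higher, and their summed level was 449 to 501 CPM in Fielder and 1650 to 1750 CPM in the mutant. Of 7 genes for light-harvesting antenna proteins, as a sign of green tissue, 6 were tested and all 6 were called higher, with sums of 0.145 to 1.93 CPM in Fielder and 52.6 to 56.6 CPM in the mutant. Of these 7, 2 had 0 counts in every Fielder library. Both lists hold only genes that the study had selected as differentially expressed in these libraries, so that these calls describe that choice. Over all tested genes 7.98% were called higher. The lists come from the part of the study's selection at hand, with all genes on chromosomes 1A, 1B and 1D, and are not the whole pathways. In Fielder the DNA replication sum was 501, 449 and 452 CPM and the antenna sum 0.145, 1.93 and 1.28 CPM. Replicate 1, the library with the lowest sums of groups 7, 5 and 2, thus had the highest DNA replication sum and the lowest antenna sum. That antenna sum is at the limit of detection, as 1 count was 0.0726 CPM in this library. In bulk RNA, fewer cells of a type and less RNA per cell cannot be told apart, and the part of dividing cells or green tissue in the SPL values was not tested.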

How the data were processed

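The authors aligned reads to the Ensembl Plants wheat reference and deposited raw counts per gene. They also deposited FPKM values, which are the same counts per length and library total. Aligner, counter and versions are not given in the sources used here. The labels and the study's methods name different library kits. Counts were analysed with edgeR 4.0.16 in R 4.3.3 (filterByExpr, TMM, quasi-likelihood test over 6 libraries, Benjamini-Hochberg adjustment over 52228 tested genes). The SE was the size of the log2 fold change over the square root of F. CPM used the TMM-scaled totals of the tested genes. Gene lengths were computed from counts and FPKM. The scripts were tested on simulated data. Summaries were made in Python 3.11.15 with scipy 1.17.1, numpy 2.4.6 and pandas 2.3.3.

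Genes named were the 8 members, other SPL, TaPIL1 and TFL1 genes of the study, called neighbours and, per group, the 2 most alike genes. Members and lists were chosen with earlier results of these data known. Alternatives were RLE factors, library size alone, DESeq2 1.42.0, other filters, the test against 2-fold, limma 3.58.1 with pseudocounts of 1 and 0.1 on log2 FPKM, removal of the trend with length, a replicate block and leaving out each library. Of the identifiers, 0 matched the reference names, so no sequences or coordinates are given. P-values measure only the spread between these libraries.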

Additional observations from a re-analysis of the deposited data

How the results depend on the processing

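The 3 calls among the 8 SPL genes were sensitive to the processing. Beside each number, the share of all tested genes called higher in that fit is given. The number was 5 by DESeq2 (7.27%) and 5 without a filter on low counts (6.64%), 4 with RLE factors (7.96%), and 1 with at least 10 counts in every library (8.14%, 3 members tested), 1 in the edgeR test against 2-fold (1.73%, 1396 genes called in all, against 7172) and 1 by limma on log2(FPKM + 1) (5.22%), whose pseudocount shrinks low genes. Leaving out each library gave 1 to 4 calls (6.44 to 9.42%), with 1 without Fielder replicate 1, mutant replicate 1 or mutant replicate 3. The 7D copy, itself chosen on this contrast, was called in all 6 of these fits and under the 9 other alternatives that could fit it. The 7B and 5A copies were each called in 1 of the 6, without Fielder replicate 3. The 7A copy was called without Fielder replicate 3 or mutant replicate 2, and the 2B copy without Fielder replicate 2. The log2 fold change of the 5B copy ranged from -0.0702 (without Fielder replicate 1) to 0.4307 (without mutant replicate 1) and was -0.0015 without mutant replicate 3. The summed ratio of group 7 ranged from 3.44 to 7.41 over these fits and that of group 2 from 4.21 to 21.2, the latter without Fielder replicate 2. No pair of homoeologs passed the adjusted threshold under any alternative run. For the runs that left out a library this outcome was fixed in advance, since 5 libraries allow no exact permutation p below 0.0625.

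Libraries of the same replicate number showed no shared deviation over the tested genes, with correlations of -0.024, 0.051 and 0.009. These correlations cannot tell whether same-numbered samples were handled together. The fit with the replicate number as a block called 5 members higher, beside 8.23% of all tested genes.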
